A study of Mus musculus with 6 samples.

Results

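Transcription of spermatid genes in the mouse testis rests on a small set of germ cell regulators, and 10 of them were read here in ATZ-treated and control testes. The 10 genes were *Crem*, *Fhl5*, *Tbpl1*, *Taf7l*, *Gtf2a1l*, *Rfx2*, *Sox30*, *Mybl1*, *Tcfl5* and *Ovol1*, out of 22180 genes with a probe set of 1 symbol. They were taken by name. For each gene, the probe set whose only symbol is that gene was used, with the highest mean over the 6 arrays where a gene has several, and each of the 10 had 1 such probe set. The mean of each of the 10 exceeded the median over all probe sets of the array, so none was lost to a filter on dim probe sets. Genes with such a mean are called brighter genes here.

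Whole testes of C57BL/6J males were hybridized to 6 mouse gene 2.0 st arrays of Affymetrix, 3 for ATZ and 3 for control. Males of the ATZ group received the triazine herbicide atrazine at 100 mg/l in their water, a daily dose near 25 mg/kg, over 3 weeks, followed by 2 weeks of plain water. Control males of the same strain had no atrazine, and the testes of both groups were taken at 10 weeks of age. The labels do not say whether a sample is 1 animal or a pool, so the p-values cover the spread among the samples alone, which may be technical. Values are log2 values after robust multi-array average (RMA), and the number of arrays limits their precision. Summed levels of markers are given as log2 of the sum of linear values. For 12 pachytene and diplotene spermatocyte markers the sum was 15.55 to 15.56 in ATZ and 15.57 to 15.59 in control testes. For 12 round spermatid markers it was 15.48 to 15.51 in ATZ and 15.42 to 15.50 in control testes. For 11 elongating spermatid markers it was 16.35 to 16.38 in ATZ and 16.36 to 16.41 in control testes. The germ cells in which these regulators act were thus present in every sample.

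Germ cells pass from meiotic prophase into round spermatids, which transcribe the genes of the sperm head and tail before their chromatin is packed with protamines. A-MYB (*Mybl1*), TCFL5 and OVOL1 act in meiotic prophase, RFX2 and SOX30 in the round spermatid programme, and CREM switches on many spermatid genes together with its coactivator ACT (*Fhl5*). TRF2 (*Tbpl1*), TAF7L and ALF (*Gtf2a1l*) are germ cell forms of general transcription factors. In a whole testis, fewer cells of a type and less RNA per cell cannot be told apart.

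None of the 10 regulators passed the test for a change with ATZ. In the limma test 0 of 10 had an adjusted p under 0.05, against 0% of all probe sets, and the adjusted p was 0.998 for each. At an unadjusted p under 0.05 the count was 0 of 10, where 2.39% of the 22180 genes passed. With a fold of 1.5 or more in addition, the criterion of the methods, it was again 0 of 10, against 0.203% of genes. The groups did not overlap for 1 member, *Taf7l*, lower in ATZ, and for no member higher in ATZ, while 3.08% of all genes lay wholly lower and 3.83% wholly higher in ATZ. The log2 changes, ATZ minus control, ran from −0.19 for *Taf7l* to 0.073 for *Tbpl1*, with 4 above 0 and 6 below 0. Their median was −0.025, against −0.0033 over all genes and −0.02 over the 14251 brighter genes.

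The 95% interval of the log2 change lay within a fold of 1.5 in either direction for 10 of 10 members. The same held for 87.2% of all genes and for 94.4% of the brighter genes. The count for the regulators was thus near the share of the brighter genes, which were not matched to the regulators in brightness. The regulators ran from *Taf7l*, with a mean above that of 69.5% of all probe sets, to *Tcfl5*, above that of 98.9%. The lowest fold that an interval reached was 0.745, for *Taf7l*, and the highest was 1.22, for *Tbpl1*. The median SD within a group was 0.085 for the members against 0.111 over the brighter genes. It was 0.189 for spermatogonial markers and 0.128 for leptotene and zygotene markers. For pachytene and diplotene markers it was 0.056, for round spermatid markers 0.055 and for elongating spermatid markers 0.047. In an exact permutation test 3 arrays against 3 cannot go below a two-sided p of 0.10.

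**Figure D1:**
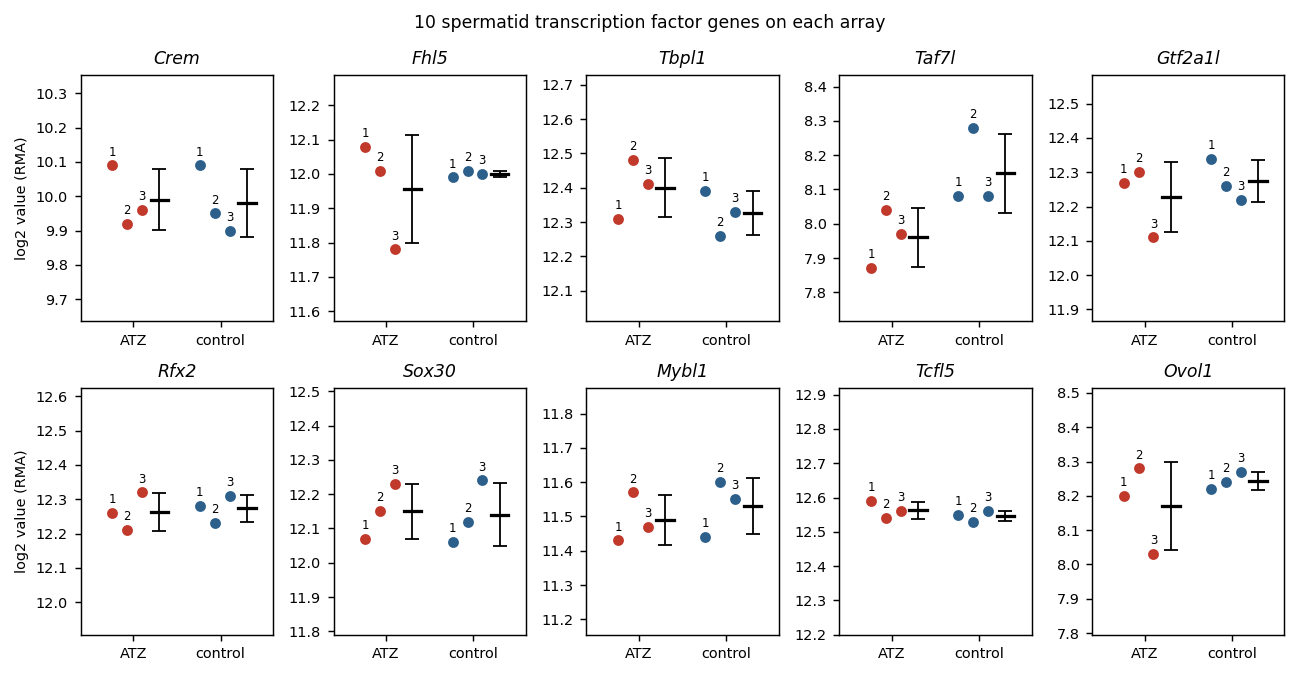
Log2 RMA value (vertical axis) of each of the 10 regulators on the 3 ATZ (red) and 3 control (blue) arrays, numbered by replicate, with the mean and SD of each group in black. All panels span the same height in log2 units. The groups overlap in every panel except that of *Taf7l*, where the ATZ arrays at 7.87 to 8.04 lie under the control arrays at 8.08 to 8.28.

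*Crem* encodes an activator that round spermatids make from a gene whose other products, including ICER, repress transcription. Its log2 value was 10.09, 9.92 and 9.96 in ATZ testes and 10.09, 9.95 and 9.90 in control testes. The groups overlapped, and array 1 was the highest in each of them. The log2 change was 0.01 (standard error 0.096, 95% interval −0.22 to 0.24), a fold of 1.01 with an interval of 0.858 to 1.18. RefSeq lists 18 curated mRNAs of *Crem*, the most of the 10 genes, and *Crem* had 1 probe set. Which of these mRNAs its probes match was not examined, and the activator and repressor forms were not separated here.

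*Fhl5* encodes ACT, a protein of LIM domains that binds CREM and lets it activate without phosphorylation. It measured 12.08, 12.01 and 11.78 in ATZ testes and 11.99, 12.01 and 12 in control testes. Its SD was 0.157 in ATZ and 0.01 in control (n = 3 each), because ATZ 3 lay below all 5 other arrays. The log2 change was −0.043 (standard error 0.10, 95% interval −0.29 to 0.21), and without ATZ 3 it was 0.045.

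Of 9 spermatid genes known in mice as targets of CREM or as lost without it, 8 were measured, and none of them passed the test. The log2 change was above 0 for 3, below 0 for 4 and at 0 for 1, and 0 of 8 reached an unadjusted p of 0.05. Their changes ran from −0.053 for *Ace*, which encodes a testis form of angiotensin-converting enzyme, to 0.033 for *Camk4*, which encodes a kinase of the spermatid nucleus, with a median of −0.0033. Which transcripts of *Ace* and *Camk4* the probes match was not examined. *Prm1*, the gene of protamine 1, measured 13.75, 13.81 and 13.70 in ATZ testes and 13.71, 13.76 and 13.70 in control testes. *Tnp1*, which encodes a transition protein that replaces histones ahead of the protamines, averaged 12.41 ± 0.042 in ATZ and 12.41 ± 0.06 in control testes (SD, n = 3 each). *Tnp2* had a log2 change of −0.047 and *Smcp*, of the sperm mitochondrial capsule, 0.023. *Odf1*, of the outer dense fibres of the tail, had −0.0067. Each of the 8 intervals lay within a fold of 1.5.

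**Figure D2:**
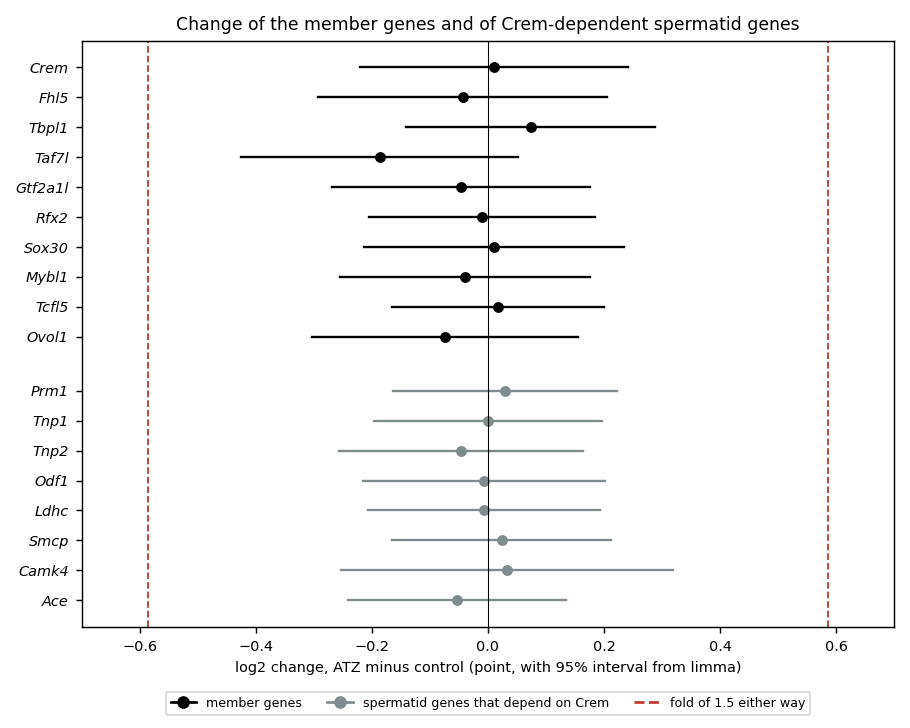
Log2 change, ATZ minus control (horizontal axis), with its 95% interval from limma for the 10 regulators (black) and 8 *Crem*-dependent spermatid genes (grey). Dashed lines mark a fold of 1.5 in either direction, and all 18 intervals lie between them and cross 0.

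CREM binds the cAMP response element (CRE), written TGACGTCA, or its half-site TGACG. The RefSeq promoter windows used here run from 250 bases before to 50 bases after the start of each gene in GRCm38.p6, and motifs were searched on both strands. A full CRE was in 1.79% and a half-site in 20.8% of all 32851 windows, where a full CRE counts as a half-site too. Of the *Crem*-dependent genes, the windows of *Prm1*, *Prm2*, *Tnp1*, *Tnp2*, *Smcp* and *Ace* held neither a full CRE nor a half-site. Only these exact letters were searched. A CREM site with other letters, or outside the window, could not be found, so these genes may still hold one. *Odf1* and *Camk4* had no window. *Ldhc*, which encodes the lactate dehydrogenase of spermatocytes and spermatids, is shown as the only one with half-sites. Of its 2 windows, 1 held 2 half-sites, at −61 and −47 from the start. The sequence is chr7:46861193-46861243, plus strand, with the half-sites and 1 MYB core (CCGTT, the other strand of AACGG) in capitals.
Ldhc: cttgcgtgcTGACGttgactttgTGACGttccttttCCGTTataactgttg
*Ldhc* measured 11.60, 11.67 and 11.64 in ATZ testes and 11.58, 11.63 and 11.72 in control testes, a log2 change of −0.0067 (95% interval −0.21 to 0.19). The highest and the lowest of its 6 values were both in control testes. A match is a description of letters, and binding was not measured here.

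The germ cell forms of the general transcription factors held the lowest and the highest change of the 10 genes. *Taf7l* encodes an X-linked paralogue of the TFIID subunit TAF7. It measured 7.87, 8.04 and 7.97 in ATZ testes and 8.08, 8.28 and 8.08 in control testes. All 3 ATZ values were below all 3 control values, by 0.04 at the nearest, and control 2 was the highest array. The means were 7.96 ± 0.085 in ATZ and 8.15 ± 0.115 in control (SD, n = 3 each), a log2 change of −0.19 (standard error 0.099, 95% interval −0.43 to 0.052) and a fold of 0.879. The difference did not pass the limma test (p = 0.105, adjusted p = 0.998), and its exact permutation p was the smallest that 3 against 3 can give. Without control 2 the log2 change was −0.12.

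Values of other cells and of X-linked genes are given beside *Taf7l*. Of 12 spermatogonial markers, 11 had a log2 change below 0, with a median of −0.13 and none past an unadjusted p of 0.05, and their summed level was 11.90 to 12.13 in ATZ and 12.02 to 12.40 in control testes, highest in control 2. The summed level of 12 Sertoli cell markers was 13.88 to 14.01 in ATZ and 13.84 to 14.17 in control testes, again highest in control 2. The part of these cells in the *Taf7l* difference was not tested. The 899 X-linked genes had a median log2 change of −0.033 and 2.56% of them lay wholly lower in ATZ, against −0.0033 and 3.1% of 21065 autosomal genes. *Taf7*, the widely expressed paralogue, measured 7.83, 7.83 and 7.43 in ATZ testes and 7.99, 7.80 and 7.69 in control testes, a log2 change of −0.13 (standard error 0.146) with overlapping groups.

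*Tbpl1* encodes TRF2, a relative of the TATA-binding protein without which spermatids do not mature. It measured 12.31, 12.48 and 12.41 in ATZ testes and 12.39, 12.26 and 12.33 in control testes, a log2 change of 0.073 (standard error 0.089, 95% interval −0.14 to 0.29). The groups overlapped through ATZ 1, which was below control 1 and control 3. *Tbp*, the TATA-binding protein gene itself, had a log2 change of 0.017. *Gtf2a1l* encodes ALF, a germ cell form of the large TFIIA subunit. It measured 12.27, 12.30 and 12.11 in ATZ testes and 12.34, 12.26 and 12.22 in control testes, a log2 change of −0.047 (standard error 0.092), and *Gtf2a1*, which encodes the TFIIA subunit of other cells, had −0.043. For *Gtf2a1l*, as for *Fhl5*, ATZ 3 lay below all 5 other arrays.

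*Taf7l* is shown with the palindromic E-box CACGTG in its promoter, a motif in 7.15% of all windows. The stretch is chrX:134476510-134476560, minus strand, with the E-box at −49 in capitals.
Taf7l: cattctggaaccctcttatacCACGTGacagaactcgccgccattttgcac
The same window held the TATA box letters (TATAAA) on each strand, overlapping each other, at −150 and −148 from the start. A TATA box was in 13.6% of all windows. The window of *Tbpl1* held none of the 7 motifs searched. No member window held a full CRE.

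RFX2 and SOX30 drive genes of the flagellum and of round spermatids, and with *Crem* their genes had the smallest changes of the 10. *Rfx2* measured 12.26, 12.21 and 12.32 in ATZ testes and 12.28, 12.23 and 12.31 in control testes, a log2 change of −0.01 (standard error 0.081, 95% interval −0.20 to 0.18). *Sox30* measured 12.07, 12.15 and 12.23 in ATZ testes and 12.06, 12.12 and 12.24 in control testes, a log2 change of 0.01 (standard error 0.093, 95% interval −0.21 to 0.23). Both genes were highest on ATZ 3 and control 3. On these same arrays the summed level of 9 leukocyte markers was lowest, at 11.27 on ATZ 3 and 11.23 on control 3, against 11.55 to 11.80 on the other 4. The sums of spermatogonial, Sertoli, Leydig, peritubular myoid, endothelial and epididymal markers were lowest on the same arrays too. The part of such cells in the values of *Rfx2* and *Sox30* was not tested. Within a group the arrays of *Sox30* spread by up to 0.18, and the group means lay 0.01 apart.

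*Rfx1* and *Rfx3*, relatives of *Rfx2* that are made in many tissues, had log2 changes of −0.043 and −0.04. *Spag6l*, a gene of the sperm axoneme tied to RFX2, had 0.023. A list of 4 genes that SOX30 is known to bind in mouse spermatids was measured, and the groups overlapped for each of the 4. They had a median of −0.025, with *Tnp1* at 0, *Ccdc54* at 0.013, *Tsga8* at −0.05 and *Hils1*, the gene of a spermatid linker histone, at −0.10. *Hils1* was lowest on ATZ 3, at 10.98, where the other 5 arrays ran from 11.26 to 11.39.

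**Figure D3:**
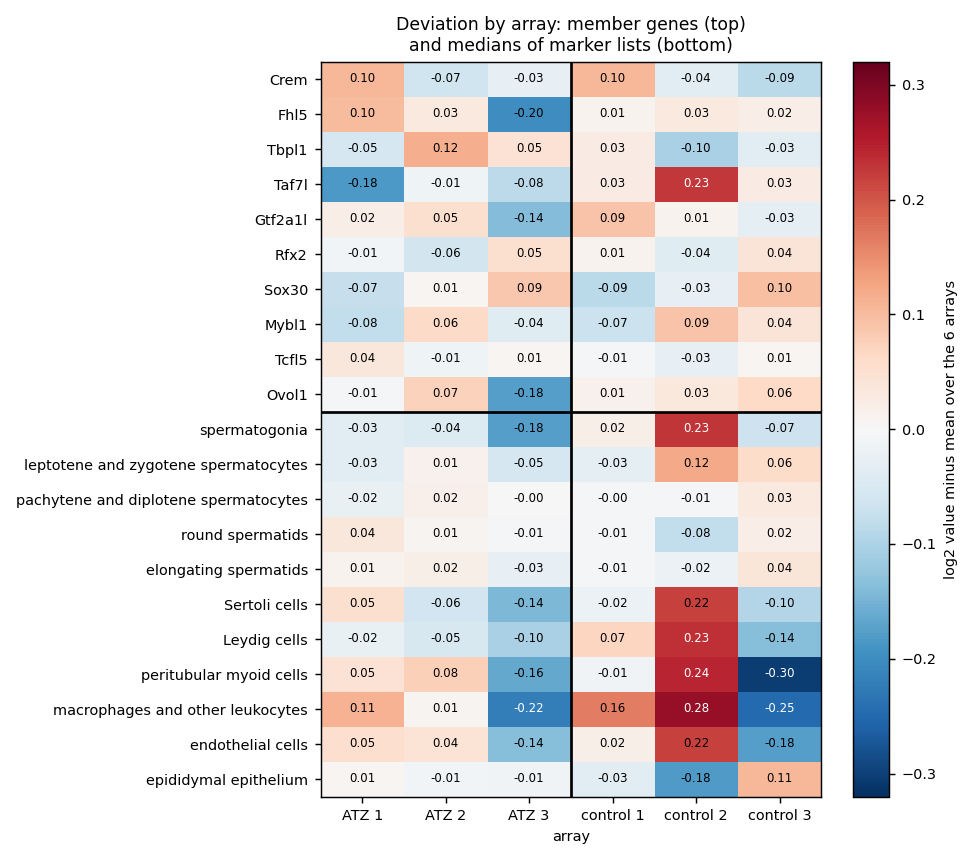
Deviation of each array (columns, ATZ on the left) from the mean over the 6 arrays, in log2 units, for the 10 regulators (upper rows) and for the medians of 11 marker lists (lower rows). ATZ 3 and control 3 are low and control 2 is high in the lists of spermatogonia and of somatic cells of the testis, while among the regulators *Taf7l* is high on control 2 and *Rfx2* and *Sox30* are high on both arrays numbered 3.

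Of the factors of meiotic prophase, *Mybl1* encodes A-MYB, which switches on meiotic genes and the precursors of pachytene piRNAs. It measured 11.43, 11.57 and 11.47 in ATZ testes and 11.44, 11.60 and 11.55 in control testes. In each group array 1 was the lowest and array 2 the highest. The same number was highest in both groups for 5 of the 10 members, among them *Crem*, *Rfx2* and *Sox30*. That was near the share of the brighter genes with 1 highest array in each group, 40.9%. The log2 change was −0.04 (standard error 0.09, 95% interval −0.26 to 0.18). *Tcfl5*, the gene of a basic helix-loop-helix factor of spermatocytes and spermatids, measured 12.59, 12.54 and 12.56 in ATZ testes and 12.55, 12.53 and 12.56 in control testes. Its 6 values spanned 0.06, a range that 0.695% of the brighter genes had or undercut, and the log2 change was 0.017 (standard error 0.076, 95% interval −0.17 to 0.20). *Rfx2* was the next most even of the 10 genes, with a range of 0.11, which 6.08% of the brighter genes had or undercut. The mean exceeded that of 98.9% of all probe sets for *Tcfl5* and of 98.3% for *Rfx2*. The brighter genes were not matched to them in brightness. Over the *Crem*-dependent genes the range ran from 0.10 for *Smcp* to 0.39 for *Camk4*.

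*Ovol1* encodes a zinc finger repressor that spermatocytes need to pass the pachytene stage. It measured 8.20, 8.28 and 8.03 in ATZ testes and 8.22, 8.24 and 8.27 in control testes, a log2 change of −0.073 (standard error 0.095, 95% interval −0.30 to 0.16). ATZ 3 was the lowest of the 6 arrays here, as for 3 of the 10 members in all, against 2 each for ATZ 1 and control 2. The share of all genes that were lowest on ATZ 3 was not counted. *Id2*, which encodes an inhibitor of helix-loop-helix factors and is a target that OVOL1 represses in mouse spermatocytes, measured 9.32, 9.39 and 9.09 in ATZ testes and 9.56, 9.61 and 9.18 in control testes. Its log2 change was −0.18 (standard error 0.149) and the groups overlapped. *H1f6*, a testis linker histone gene also tied to OVOL1, had −0.057.

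Many genes of the piRNA pathway are targets of A-MYB. Over 13 of them the median log2 change was 0.0033, and 7 were above and 6 below 0. None of them passed an unadjusted p of 0.05, and none lay wholly above or below control. The genes with the smallest p were *Tdrd9*, an RNA helicase gene, at −0.093, *Mov10l1*, another helicase gene, at −0.073, and *Piwil1*, the gene of the Piwi protein of pachytene cells, at −0.06.

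Promoter sequence is shown next for the 3 members whose windows held a MYB core, AACGG, before the start of the gene, since A-MYB is known to drive genes of meiosis and of early spermatids. A MYB core was in 17.4% of all windows, and 3 or more were in 0.265% (87 of 32851). *Tcfl5* and *Rfx2* each held 3. Of the 10 members, 7 had windows in the table, and these were *Fhl5*, with 2 windows, *Tbpl1*, *Taf7l*, *Gtf2a1l*, *Rfx2*, *Sox30* and *Tcfl5*. MYB cores are in capitals as AACGG, or CCGTT on the other strand, and in *Rfx2* the capitals CCGTTGCC join a MYB core to an overlapping X-box arm, GTTGCC, a motif of RFX factors found in 12.5% of all windows. The stretches are chr2:180642701-180642816 on the minus strand for *Tcfl5*, chr17:56831108-56831193 on the minus strand for *Rfx2* and chr11:45980250-45980309 on the plus strand for *Sox30*.
Tcfl5: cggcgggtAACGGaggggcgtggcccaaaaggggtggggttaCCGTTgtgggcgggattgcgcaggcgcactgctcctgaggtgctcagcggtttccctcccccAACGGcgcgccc
Rfx2: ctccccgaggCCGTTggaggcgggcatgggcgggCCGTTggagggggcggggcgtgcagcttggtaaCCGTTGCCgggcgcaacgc
Sox30: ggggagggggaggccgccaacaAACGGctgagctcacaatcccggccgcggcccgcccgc
The cores of *Tcfl5* began at −117, −83 and −21 from the start, those of *Rfx2* at −175, −151 and −118, and that of *Sox30* at −38. The 3 genes had log2 changes of 0.017, −0.01 and 0.01 in the same order. *Gtf2a1l* held a MYB core after its start, at 27, and an X-box arm at −188. A SOX core, ACAAT, was in 31% of all windows and in those of *Fhl5*, *Taf7l* and *Sox30*. These matches say nothing of binding in these testes.

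**Figure D4:**
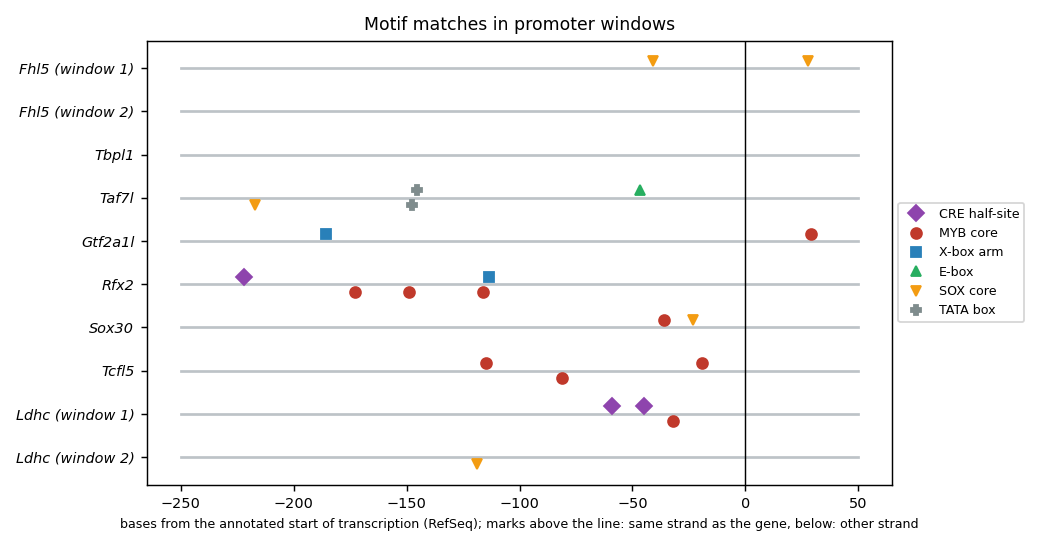
Matches of 6 motifs by distance in bases from the annotated start (horizontal axis) in the promoter windows of 7 regulators and of *Ldhc*. Marks above a line are on the strand of the gene and marks below it on the other strand. *Tcfl5* and *Rfx2* carry 3 MYB cores each before the start.

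Relatives and partners of the 10 regulators were measured beside them. Of 26 such genes 24 were measured, 9 with a log2 change above 0 and 15 below 0, at a median of −0.035, and 0 passed an unadjusted p of 0.05. The smallest p belonged to *Fhl3*, a LIM-domain relative of *Fhl5*, which measured 8.34, 8.08 and 8.19 in ATZ testes and 8.44, 8.35 and 8.37 in control testes, lower in ATZ without overlap (log2 change −0.18, standard error 0.098, adjusted p = 0.998 by limma). *Creb3l4*, a CREB relative of spermatids, lay wholly higher in ATZ, at 12.67, 12.55 and 12.54 against 12.52, 12.43 and 12.46 in control (log2 change 0.117, adjusted p = 0.998 by limma). The counts without overlap were thus 1 of 24 lower and 1 of 24 higher, against 3.08% and 3.83% of all genes. *Creb1*, the CREB of other cells, had 0.01, and *Rfx7* and *Rfx4* had −0.17 and −0.11.

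For 24 other transcription regulators of male germ cells the median log2 change was −0.017. Of these, 5 were above 0 and 19 were below 0, and none passed an unadjusted p of 0.05. Those with the smallest p were *Etv5* (−0.20), *Sall4* (−0.11) and *Stra8* (−0.24), which act in spermatogonia or at the entry into meiosis, and *Lin28a* (0.117), which encodes an RNA-binding protein of spermatogonia. The groups did not overlap for 1 of the 24, *Sall4*, lower in ATZ, and for 0 higher, against 3.08% and 3.83% of all genes. By stage, the median log2 change was −0.13 for spermatogonial markers, −0.043 for leptotene and zygotene, −0.012 for pachytene and diplotene, 0.035 for round spermatid and −0.017 for elongating spermatid markers. The median of the regulators of meiotic prophase was −0.04, and that of *Rfx2* and *Sox30* was 0. The adjusted p was 0.998 for each stage marker with the smallest p of its list, so no marker of these stages passed the test.

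**Figure D5:**
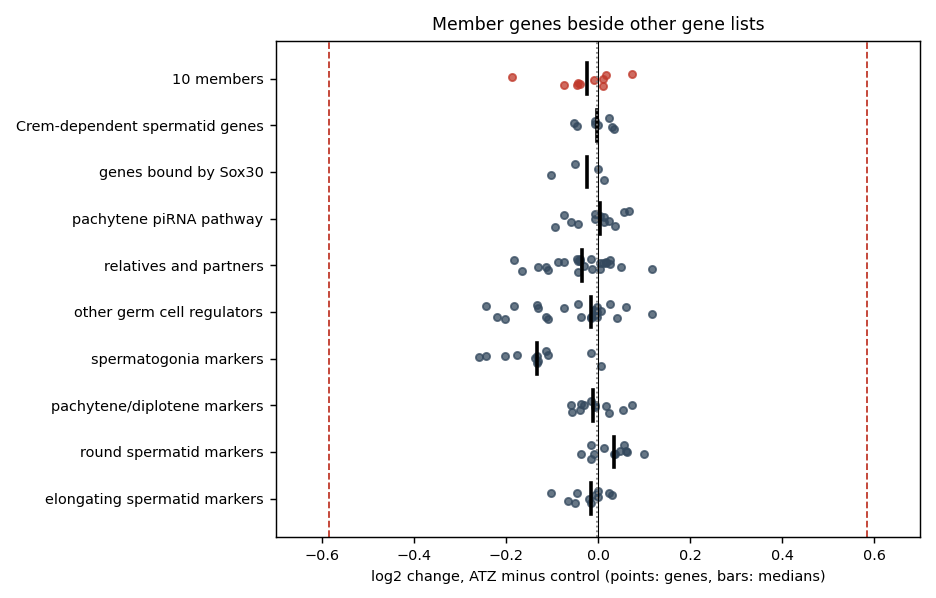
Log2 change, ATZ minus control (horizontal axis), of single genes (points) with the median of each list (black bars), for the 10 regulators (red) and 9 other lists. The dotted line is the median of all genes and the dashed lines mark a fold of 1.5. The spermatogonial markers, at a median of −0.13, lie farthest from 0, and the median of the regulators is −0.025.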

How the data were processed

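RNA of whole testes was measured on 6 arrays, 3 for ATZ and 3 for control. The deposited values are log2 values of 41345 probe sets, which the authors computed with the RMA method of Expression Console (Affymetrix; versions not given in the sources used here) and rounded to 2 decimals. RMA is meant to bring all arrays to 1 distribution, so a shift of all genes would be largely removed. The array medians of the deposited values still differed, at 6.62, 6.63 and 6.69 in ATZ and 6.61, 6.60 and 6.64 in control. From these values, limma 3.58.1 in R 4.3.3 (lmFit and eBayes, two-sided, Benjamini-Hochberg over all probe sets) compared ATZ with control, with no filter or covariate, and was tested on simulated data. Fold changes come from means of log2 values. The methods name a fold of 1.5 and a p under 0.05, with no test for the arrays. Of the probe sets, 23521 have 1 symbol in the annotation, 1820 have several and 16004 have none. The members and gene lists were chosen with earlier results of these data known. Named besides the members are direct relatives, *Crem*-dependent genes and up to 4 genes of each list with the smallest p. Promoter windows are from RefSeq (GRCm38.p6), searched with Python 3.11.15. Alternatives were each array left out, a replicate block, quantile normalization, median centring, other variance settings, array weights, filters on probe sets, other probe set choices, linear means and, chosen after seeing the data, both arrays numbered 3 left out.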

Additional observations from a re-analysis of the deposited data

How the results depend on the processing

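The counts of regulators past an adjusted p, an unadjusted p and the criterion of the methods stayed at 0 in all alternatives, and the lowest adjusted p of a regulator was 0.834, without control 3. *Taf7l* also lay wholly lower in ATZ after quantile normalization (log2 change −0.152) and after median centring (−0.217). Groups without overlap stay so when arrays are left out, and *Taf7l* has 1 probe set. Settings with arrays left out, the filter on dim probe sets and the other probe set choices thus could not make its groups overlap. With single arrays left out its log2 change was −0.227 to −0.12, and 1 to 2 regulators were without overlap. *Taf7l*, *Mybl1* and *Tbpl1* kept their direction in all 15 alternatives. The replicate block, the filter on dim probe sets and the other probe set choices leave the log2 changes as they are, so those could not turn a direction. The median change of the 10 genes ran from −0.03 to 0.0042 with single arrays left out, was −0.055 with arrays centred on their medians, where the median of all genes was −0.033, and was −0.0025 without the 2 arrays numbered 3. Small changes turned sign with single arrays left out, over −0.04 to 0.065 for *Crem*, −0.105 to 0.045 for *Fhl5*, −0.083 to 0.012 for *Gtf2a1l*, −0.038 to 0.017 for *Rfx2* and −0.03 to 0.06 for *Sox30*. Centring turned *Crem* (−0.02), *Sox30* (−0.02) and *Tcfl5* (−0.013), and leaving out the arrays numbered 3 turned *Crem* (−0.015), *Fhl5* (0.045) and *Ovol1* (0.01). The cause was not tested. All 10 intervals stayed within a fold of 1.5 in each alternative except the last, with 9. Deviations of same-numbered samples correlated at 0.048, 0.137 and 0.40 and were highest with the own number for 2 of 3. The numbers were not taken as pairs in the main test, because the labels do not say what a number marks. With the replicate number as a block in limma, 0 regulators passed an adjusted or unadjusted p of 0.05, and the smallest p was 0.0827 for *Taf7l*. The block leaves the log2 changes as they are, so their median was again −0.025.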
